A study of Homo sapiens with 3 samples.

Results

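The genes ATF2, ATF3, ATF4, ATF7, BATF, BATF2, BATF3 and JDP2 were examined for peaks of Fra-1 and Fra-2. The study used MDA-MB-231, a human line established from a breast cancer and labelled triple negative, basal B. The cells were grown in medium with 10% serum, and the series holds a chromatin immunoprecipitation sequencing (ChIP-seq) sample with a Fra-1 antibody, one with a Fra-2 antibody and an input DNA sample, which was not analysed here. The labels mention 2 independent replicates of each, but 1 peak list per antibody was used, so no value has a spread between replicates and no test between conditions was possible. Depth is unknown, since the lists give positions alone. A peak was counted for a gene when its centre lay in the gene body or within 100 kb of an annotated transcription start site (TSS) of that gene. All 8 genes were found in the annotation, and the rule gave 10 of the 9998 Fra-1 peaks and 16 of the 13003 Fra-2 peaks. Whether the genes are expressed in this line cannot be read from peak lists.

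Fra-1 and Fra-2 are Fos relatives which form AP-1, a dimer with a Jun protein. The ATF, BATF and JDP2 proteins are basic leucine zipper factors like them. ATF2 and ATF7 are close relatives that are activated by the stress kinases JNK and p38. ATF4 carries out the integrated stress response after translation initiation is curbed, and ATF3 is a stress-induced gene that ATF4 can activate. JDP2 is a Jun partner that represses AP-1 targets, and the BATF proteins pair with Jun without an activation domain of their own and, in immune cells, bind beside IRF factors.

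The stretches under the peaks that carry the results are shown here, as the reference sequence of hg19/GRCh37 on the plus strand. Capitals mark the AP-1 element TGACTCA, or TGAGTCA where it lies on the other strand. Each stretch runs from the start of a peak to the base before its end, and the peak of 350 bp is given by its central 300 bases. The widest Fra-1 peak of each gene, and any peak within 1 kb of a TSS, were chosen by rule, whereas the others were added because they lie in or nearest to a member gene.
Upstream of ATF3, widest Fra-1 peak, chr1:212658226-212658525: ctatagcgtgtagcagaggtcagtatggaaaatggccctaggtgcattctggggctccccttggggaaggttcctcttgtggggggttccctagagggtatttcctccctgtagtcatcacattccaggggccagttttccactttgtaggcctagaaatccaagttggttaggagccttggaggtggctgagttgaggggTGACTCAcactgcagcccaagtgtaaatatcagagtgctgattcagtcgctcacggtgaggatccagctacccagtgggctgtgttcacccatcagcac
ATF3 intron near the 5′ end, Fra-2 peak, chr1:212740501-212740750: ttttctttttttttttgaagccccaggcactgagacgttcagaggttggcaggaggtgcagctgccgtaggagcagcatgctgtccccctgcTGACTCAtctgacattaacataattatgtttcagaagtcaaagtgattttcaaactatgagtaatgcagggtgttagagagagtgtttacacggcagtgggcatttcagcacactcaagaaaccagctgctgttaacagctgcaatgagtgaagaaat
ATF3 intron, also in reach of BATF3, Fra-1 peak, chr1:212769601-212769750: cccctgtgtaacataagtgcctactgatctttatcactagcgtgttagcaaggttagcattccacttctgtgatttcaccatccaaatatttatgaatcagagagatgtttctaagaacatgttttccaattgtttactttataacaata
ATF3 intron just before an internal TSS, Fra-2 peak alone, chr1:212781751-212781850: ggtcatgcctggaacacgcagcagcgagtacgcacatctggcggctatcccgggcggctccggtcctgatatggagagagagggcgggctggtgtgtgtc
Downstream of ATF4, Fra-1 and Fra-2 peak, chr22:39970851-39971100: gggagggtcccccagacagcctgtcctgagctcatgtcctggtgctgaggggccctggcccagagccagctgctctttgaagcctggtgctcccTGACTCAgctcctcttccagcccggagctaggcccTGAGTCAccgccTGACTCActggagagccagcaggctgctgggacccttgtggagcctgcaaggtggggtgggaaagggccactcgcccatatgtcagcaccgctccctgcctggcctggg
ATF7 intron, Fra-2 peak, chr12:53955451-53955600: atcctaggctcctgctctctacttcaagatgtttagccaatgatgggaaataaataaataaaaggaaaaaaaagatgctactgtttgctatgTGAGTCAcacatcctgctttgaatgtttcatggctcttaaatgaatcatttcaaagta
Beyond the 3′ end of ATF7, Fra-1 and Fra-2 peak, chr12:53822051-53822200: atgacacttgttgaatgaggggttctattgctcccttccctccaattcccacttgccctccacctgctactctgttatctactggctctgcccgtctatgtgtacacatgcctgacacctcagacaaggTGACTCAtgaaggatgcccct
Downstream of BATF2, widest Fra-1 peak, chr11:64691601-64691850: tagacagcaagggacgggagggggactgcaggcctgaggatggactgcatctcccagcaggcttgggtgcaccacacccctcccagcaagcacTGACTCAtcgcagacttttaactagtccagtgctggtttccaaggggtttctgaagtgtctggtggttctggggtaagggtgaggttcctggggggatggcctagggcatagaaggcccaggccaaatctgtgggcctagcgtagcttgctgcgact
Upstream of BATF2, Fra-1 and Fra-2 peak, chr11:64774451-64774600: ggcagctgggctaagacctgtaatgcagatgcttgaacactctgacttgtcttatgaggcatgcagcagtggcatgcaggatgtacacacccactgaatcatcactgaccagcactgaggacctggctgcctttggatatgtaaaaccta

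Peaks lay at 5 of the 8 genes and they were the same 5 in both lists: ATF3, ATF4, ATF7, BATF2 and BATF3. No Fra-1 or Fra-2 peak was in reach of ATF2, BATF or JDP2. The share of 62.5% stood beside 45.3% of 20098 protein-coding genes with a Fra-1 peak and 58.6% with a Fra-2 peak by the same rule. Peaks of both lists were near 42.7% of all genes and neither kind near 38.8%. With 8 genes, and 2 pairs of them neighbours on a chromosome, these shares are a description and no test was made.

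The number of peaks per gene ran from 0 to 5 for Fra-1 and from 0 to 6 for Fra-2. ATF3 had 5 Fra-1 peaks, ATF7 and BATF2 had 2 each, and ATF4 and BATF3 had 1 each. In the Fra-2 list ATF3 had 6, BATF2 had 4, ATF4 and BATF3 had 3 each and ATF7 had 2. ATF3 thus led both lists. The windows of the rule differed in size, and counts were not adjusted for this. They spanned 250 kb at ATF3, 303 kb at ATF7, 275 kb at ATF2 and 200 to 212 kb at the other members. At least 5 Fra-1 peaks were near 3.31% of protein-coding genes and at least 6 Fra-2 peaks near 4.37%. At least 2 Fra-1 peaks were near 3 members and 23.3% of all genes, and at least 2 Fra-2 peaks near 5 members and 34.4% of all genes. For at least 3 and at least 4 Fra-2 peaks the shares of all genes were 20.6% and 12.4%, and 4 and 2 members reached them. More Fra-2 than Fra-1 peaks were counted at 4 members, where 36.1% of all genes had more, and ATF7 had as many of each. No member had more Fra-1 peaks, which held for 6.92% of all genes.

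**Figure D1:**
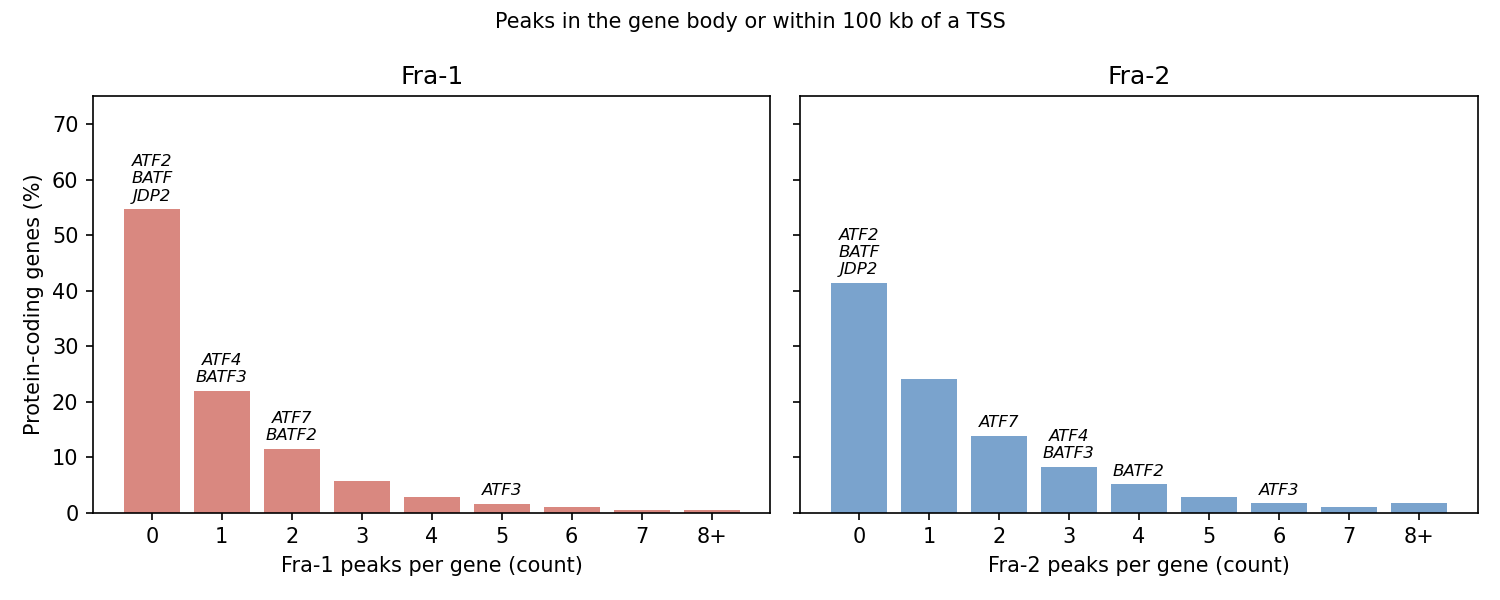
The bars give the percentage of 20098 protein-coding genes with each number of Fra-1 peaks (left) or Fra-2 peaks (right) by the rule above, and the names show where the 8 genes fall. ATF3 stands at 5 and 6 peaks, and ATF2, BATF and JDP2 at 0 in both.

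Most of these peaks were not at promoters. Within 1 kb of a TSS no member had a peak from the Fra-1 list, beside 2.74% of protein-coding genes, and ATF3 alone had a Fra-2 peak there, beside 5.09%. At a limit of 10 kb, ATF3 was again the only member in either list, beside 11.2% of genes for Fra-1 and 17.6% for Fra-2, and the nearest BATF2 pair fell just past that limit. Around the limit of 100 kb, the farthest peak inside was 94.9 kb from a TSS of ATF7 in both lists. The nearest outside were an ATF3 intron peak 120 kb from BATF3 (Fra-1) and the peak upstream of BATF3 107 kb from a TSS of ATF3 (Fra-2). Of the 10 Fra-1 peaks, 3 lay in introns of member genes, 2 in introns of other protein-coding genes, 1 in an exon of another gene, 1 in an intron of a long non-coding RNA and 3 between genes. For Fra-2 these numbers were 4, 5, 1, 1 and 5 of 16. A member owned the nearest protein-coding TSS for 4 of the Fra-1 peaks (3 at ATF3 and 1 at ATF7) and for 6 of the Fra-2 peaks (4 at ATF3, 1 at ATF7 and 1 at BATF3).

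**Figure D2:**
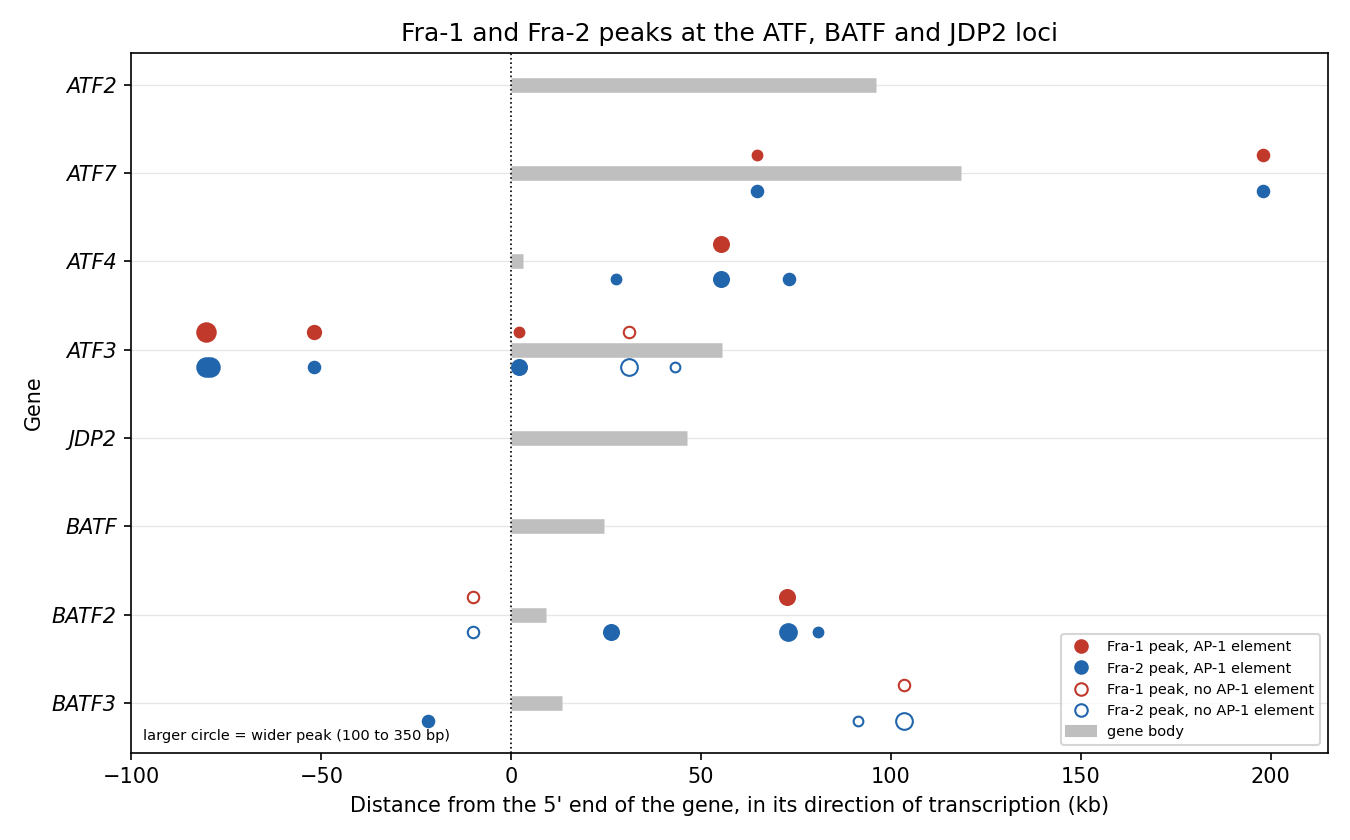
Each row is a gene, with its body as a grey bar and peaks placed by distance from the 5′ end in kb along the direction of transcription. Fra-1 peaks are drawn above and Fra-2 peaks below the bar, larger circles are wider peaks, and open circles have no AP-1 element within 100 bp of the centre. Circles crowd at ATF3, while ATF2, JDP2 and BATF have none; the neighbours about 80 kb upstream of ATF3 overlap in the drawing.

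ATF3 (chromosome 1, 212738676 to 212794119, plus strand, ENSG00000162772) had peaks upstream, close to its 5′ end and inside its introns. Of its 5 Fra-1 peaks 4 overlapped a Fra-2 peak. The farthest pair lay between genes 80.3 kb upstream in the Fra-1 list (212658201 to 212658551) and was 350 bp wide in both lists. That site was the widest Fra-1 peak at any of the 8 genes, and its reference sequence above holds a single AP-1 element. Its neighbours were each found in 1 list: a Fra-1 peak of 100 bp from 212658001 to 212658101 and a Fra-2 peak of 350 bp from 212659251 to 212659601. The Fra-1 neighbour lay just before the pair and was counted as a separate peak. It was shared once centres within 500 bp sufficed. NENF, rather than ATF3, had the nearest protein-coding TSS to these peaks, at 51.7 to 53.1 kb.

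The next pair was 52.0 kb upstream of ATF3, in an intron of a long non-coding RNA (ENSG00000286213). It was 200 bp wide for Fra-1, from 212686551 to 212686751, and 150 bp for Fra-2. Its AP-1 element lay inside the Fra-1 peak and just outside the narrower Fra-2 peak.

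Inside ATF3, a pair lay in an intron 1.98 kb (Fra-1) and 1.95 kb (Fra-2) past the 5′ end of the gene. The Fra-1 peak was 100 bp wide (212740601 to 212740701) and the Fra-2 peak 250 bp (212740501 to 212740751). The AP-1 element of this site fell inside the Fra-2 peak and just before the Fra-1 peak. A pair at 31.0 kb past the 5′ end, 12.3 kb before the nearest internal TSS, was 150 bp wide for Fra-1 (212769601 to 212769751) and 300 bp for Fra-2 (212769551 to 212769851). No copy of TGACTCA was found within 100 bp of the centre of either, and the stretch was poor in G and C, at 34.5% and 33.0%.

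The peak nearest to an ATF3 start site was in the Fra-2 list alone. It was 100 bp wide (212781751 to 212781851), lay 0.211 kb before an internal TSS of ATF3 at 212782012, annotated for a retained-intron transcript. A TSS of a protein-coding transcript follows at 212782103. The peak held no AP-1 element, and with 66.0% G and C it was the richest in these bases among the member peaks. The RefSeq promoter windows of ATF3, 300 bases around 2 other start sites, matched GRCh37 at 212738499 to 212738798 and 212788110 to 212788409, and no peak overlapped them.

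BATF3 (chromosome 1, 212859759 to 212873182, minus strand, ENSG00000123685) is the downstream neighbour of ATF3, with a gap of 65.6 kb between the genes that held no peak of either list. BATF3 is best known as a factor of cross-presenting dendritic cells. Its 1 Fra-1 peak was the ATF3 intron site, 91.2 kb from the nearest TSS of BATF3, that of a transcript with no defined coding sequence. From the 5′ end of the gene the distance was 104 kb, so BATF3 has no Fra-1 peak when that end alone, or TSS of protein-coding transcripts alone, are used. In the Fra-2 list, 2 of its 3 peaks were also those of ATF3. These peaks were counted for both genes, so 11 gene and peak combinations came from 10 Fra-1 peaks and 18 from 16 Fra-2 peaks. The only peak nearest to BATF3 itself was a Fra-2 peak of 150 bp at 212894951 to 212895101, 21.8 kb upstream, which held an AP-1 element. In the Fra-1 list no peak followed until 214276301, so that BATF3 lay in a stretch of 1510 kb without one. Of all protein-coding genes, 21.0% lay in a Fra-1-free stretch at least as long.

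**Figure D3:**
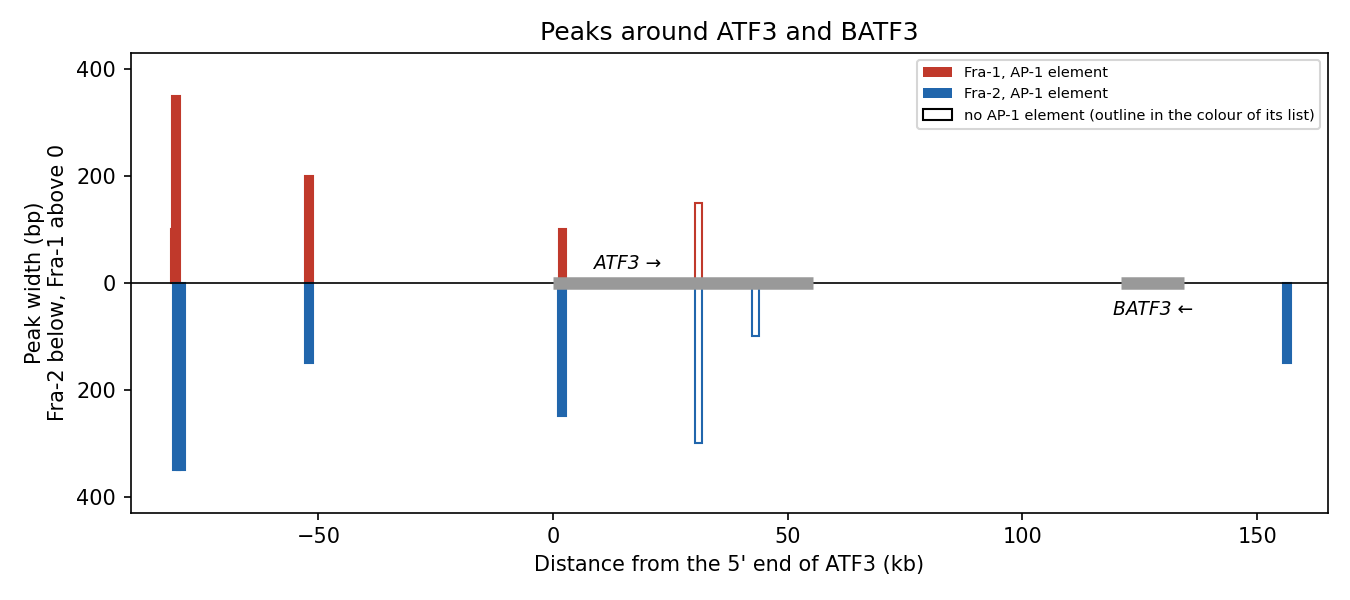
Bars show the width in bp of each Fra-1 peak (above 0) and Fra-2 peak (below 0) by distance in kb from the 5′ end of ATF3, with gene bodies in grey and arrows for the direction of transcription. Bars are drawn broader than the peaks for visibility, so the neighbours near 80 kb upstream overlap. Filled bars have an AP-1 element within 100 bp of the centre, which the site at 31.0 kb and the Fra-2 peak before the internal start site lack.

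ATF4 (chromosome 22, 39915700 to 39918688, plus strand, ENSG00000128272) had no peak in its short body or upstream of it within reach. Its 1 Fra-1 peak, from 39970851 to 39971101, was 250 bp wide and coincided exactly with a Fra-2 peak. The site lay 54.4 kb from the nearest TSS of ATF4, in an intron of the calcium channel gene CACNA1I, whose own TSS was 4.22 kb away. It held 3 AP-1 elements within 100 bp of the centre and no other member peak held more than 1. At least 2 elements were found in 13.5% of nuclear Fra-1 peaks and 12.3% of nuclear Fra-2 peaks. Fra-2 peaks without a Fra-1 partner flanked it, at 39943251 to 39943351 (100 bp, 26.7 kb from ATF4) and at 39988751 to 39988901 (150 bp, 72.2 kb), each with an AP-1 element.

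Of the close relatives ATF7 and ATF2, the former had peaks in both lists and the latter in neither. ATF7 (chromosome 12, 53901640 to 54020194, minus strand, ENSG00000170653) had a pair in an intron, 17.8 kb from its nearest TSS. That TSS belongs to a transcript with no defined coding sequence. The pair lay 64.6 kb (Fra-1) and 64.7 kb (Fra-2) from the 5′ end of the gene. It was 100 bp wide for Fra-1 (53955501 to 53955601) and 150 bp for Fra-2 (53955451 to 53955601), and it held an AP-1 element in a stretch with 35.0% G and C. The intron is shared with the read-through gene ATF7-NPFF. A further pair, 150 bp wide in both lists (53822051 to 53822201), lay 94.9 kb from the nearest TSS of ATF7 and 3.23 kb from that of AMHR2, the receptor of anti-Müllerian hormone, in whose intron it sits. This ATF7 TSS, too, is of a transcript with no defined coding sequence, and the pair lay 198 kb from the 5′ end of ATF7. With that end alone, or TSS of protein-coding transcripts alone, the pair is not counted for ATF7. ATF2 (chromosome 2, 175936978 to 176033110, minus strand, ENSG00000115966) had no peak in its body of 96.1 kb, and the nearest lay 829 kb (Fra-1) and 650 kb (Fra-2) from a TSS. As far or farther from a peak were 5.81% and 5.71% of protein-coding genes, where the median distance was 123 kb for Fra-1 and 71.5 kb for Fra-2. The stretch around ATF2 without a peak measured 2180 kb in the Fra-1 list and 1390 kb in the Fra-2 list, and 11.8% and 15.6% of genes lay in one at least as long.

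BATF2 (chromosome 11, 64755417 to 64764490, minus strand, ENSG00000168062), an interferon-induced member of its family, lies in a gene-dense region with 13 other protein-coding genes that have a TSS in its window. Its nearest peak, from 64774451 to 64774601, was 150 bp wide in both lists, 10.0 kb upstream, and had no AP-1 element. The widest was 250 bp for Fra-1 (64691601 to 64691851) and 300 bp for Fra-2 (64691551 to 64691851), with an AP-1 element. This pair lay 66.0 kb from BATF2 but 0.435 kb (Fra-1) and 0.460 kb (Fra-2) from a TSS of the phosphatase subunit gene PPP2R5B. The remaining peaks were in the Fra-2 list alone: 64738151 to 64738401 (250 bp) in an intron of MAJIN and 64683551 to 64683651 (100 bp) in an intron of ATG2A. Both held an AP-1 element. None of the BATF2 peaks had a TSS of BATF2 as its nearest.

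JDP2 (chromosome 14, 75894419 to 75940814, plus strand, ENSG00000140044) and BATF (75988798 to 76013336, plus strand, ENSG00000156127) are neighbours 48.0 kb apart, and FOS lies 145 kb before JDP2. No peak of either list lay at these genes or in the gaps between them. The stretch free of peaks that took in FOS, JDP2 and BATF ran over 702 kb in the Fra-1 list and 754 kb in the Fra-2 list, and 47.3% and 30.1% of genes lay in one at least as long. The nearest Fra-1 peak, 76114751 to 76114901, was 126 kb from a TSS of BATF and 216 kb from one of JDP2, both past the limit of 100 kb. The nearest Fra-2 peaks were 357 kb from BATF and 303 kb from JDP2.

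Overlap of the lists at these genes was near that over all peaks. Of the 10 Fra-1 peaks, 9 overlapped a Fra-2 peak by at least 1 bp (90.0%, exact binomial 95% interval 55.5 to 99.7), beside 80.3% of all nuclear Fra-1 peaks. Of the 16 Fra-2 peaks, 9 overlapped a Fra-1 peak (56.2%, 29.9 to 80.2), beside 61.3%. These intervals reflect counting error alone, as if each peak were independent of its neighbours. The centres of the 9 pairs were 0 to 50 bp apart, with a median of 25 bp. In 4 pairs the Fra-2 peak was wider, in 4 both had the same width and in 1 the Fra-1 peak was wider. Over the 7860 pairs on nuclear chromosomes the shares were 37.6%, 40.2% and 22.2%. Widths ran from 100 to 350 bp in both lists, with a median of 150 bp, equal to that of all nuclear peaks. Among the member peaks, at least 200 bp were spanned by 4 of the 10 Fra-1 peaks and 7 of the 16 Fra-2 peaks, beside 44.0% and 46.2% of nuclear peaks. No member peak lay in a repeat-like region, beside 13.5% of nuclear Fra-1 and 11.1% of nuclear Fra-2 peaks.

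The AP-1 element was found within 100 bp of the centre of 8 of 10 Fra-1 peaks (80.0%, 44.4 to 97.5) and 13 of 16 Fra-2 peaks (81.2%, 54.4 to 96.0). In all nuclear peaks the shares were 57.7% and 68.3%. Among nuclear peaks outside repeat-like regions, where all member peaks lay, they were 65.6% and 75.5%, within both intervals. The windows held 16 distinct elements, 9 of them reached by both lists, 1 by Fra-1 alone and 6 by Fra-2 alone. Those not in the stretches above are given here with 10 bases to each side, each read on the strand where it spells TGACTCA, to show their context:
ATF3, Fra-1 window, chr1:212658051-212658077, minus strand: caaggcatggTGACTCAcgcctataat
ATF3, Fra-2 window, chr1:212659441-212659467, plus strand: catggctgggTGACTCAgcggctggct
ATF3, Fra-1 and Fra-2 windows, chr1:212686574-212686600, plus strand: agggattcagTGACTCActctgaatga
BATF3, Fra-2 window, chr1:212895057-212895083, plus strand: actggttgtaTGACTCAtgagtgtggt
BATF2, Fra-2 window, chr11:64683611-64683637, minus strand: tgaggagcccTGACTCAcagctcagct
BATF2, Fra-2 window, chr11:64738274-64738300, plus strand: ctcagtgccaTGACTCAtatttacttg
ATF4, Fra-2 window, chr22:39943265-39943291, minus strand: gcagcagtgaTGACTCAcacttcgggg
ATF4, Fra-2 window, chr22:39988784-39988810, plus strand: tcaacacttgTGACTCAtggtggaagc
The base before the element was A in 3 of the 16 and the base after it T in 6, so no flanking base was common to all. Within the windows the sites without the exact element, the BATF2 upstream pair, the ATF3 pair at 31.0 kb and the Fra-2 peak before the internal ATF3 start site, matched it once any 1 of its letters was allowed to differ. Such a looser match is common, found in 85.7% of nuclear Fra-1 and 88.9% of nuclear Fra-2 peaks. Outside repeat-like regions it was in 94.3% and 96.0%.

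**Figure D4:**
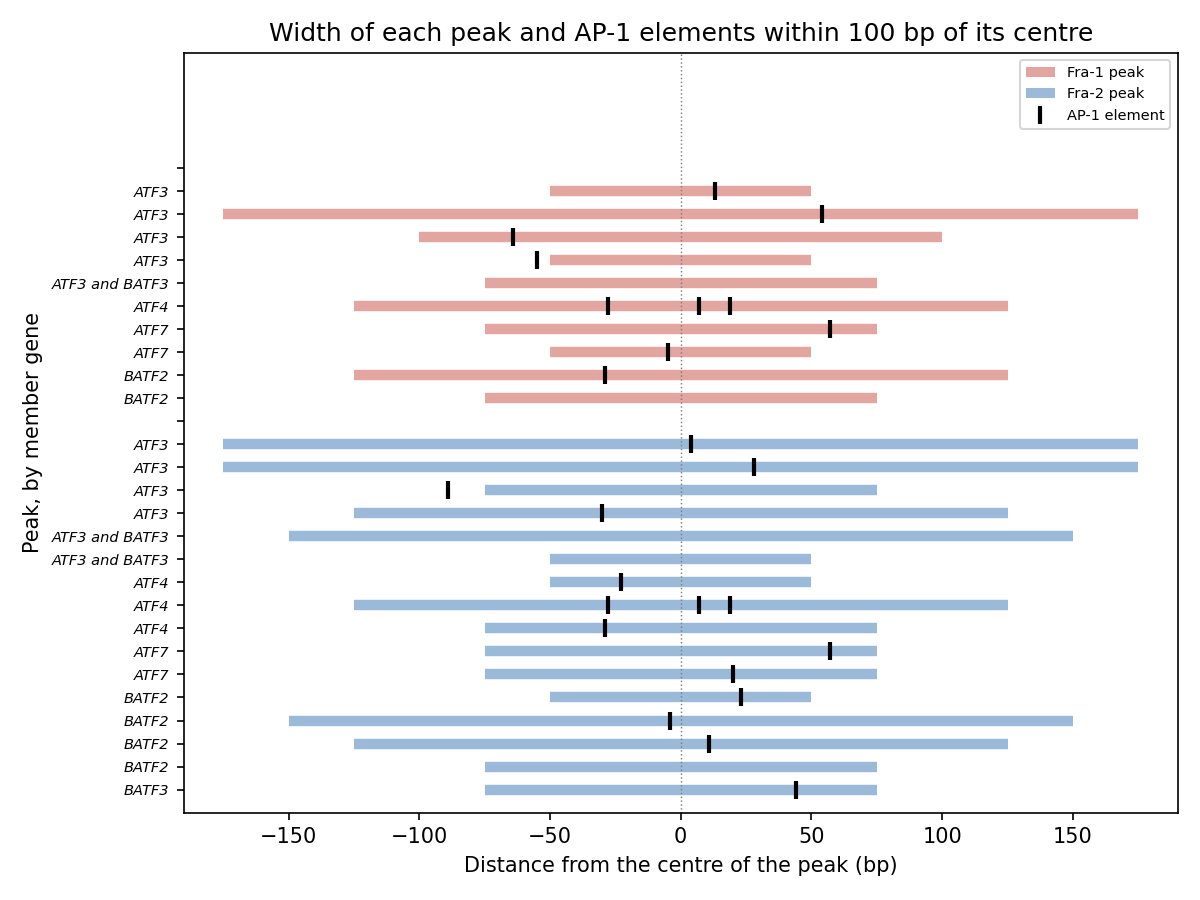
Each bar is a peak, drawn to its width in bp around its centre (x axis), named by the gene it was counted for, with Fra-1 peaks above and Fra-2 peaks below. Black ticks mark AP-1 elements within 100 bp of the centre. The ATF4 site has 3 ticks in both lists, and ticks lie outside the bar in 1 Fra-1 and 1 Fra-2 peak of ATF3.

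Other elements known for ATF and BATF proteins were not found at these sites. The cyclic AMP response element TGACGTCA, preferred by ATF and CREB dimers, was in 0 of 10 Fra-1 and 0 of 16 Fra-2 windows, which allows shares of up to 30.8% and 20.6% by the exact binomial interval. It was in 0.204% and 0.398% of all nuclear peaks. The C/EBP-ATF composite element TGATGCAAT, through which ATF4 acts, was also in none, beside 0.449% and 0.429%. So was the composite of AP-1 and IRF sites at which BATF proteins bind, sought as TGACTCA or TGAGTCA directly after GAAA or 4 bases after TTTC. It contains the AP-1 element and was in 2.88% and 3.02% of nuclear peaks. The TEAD sequence GGAATG, at which the partners of YAP and TAZ bind, was in 3 of 10 and 3 of 16 windows, beside 26.2% and 22.6%. All motifs were sought on both strands. These matches describe letters in a window of 200 bases and not bound sites. In the RefSeq promoter table (GRCh38.p14, 250 bases before to 50 after a start site), 6 of the 8 genes had an entry. None of their windows held TGACTCA or TGACGTCA, which were in 4.95% and 1.85% of 35116 promoters.

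Partners and pathway genes of the family were counted by the same rule. Their lists were chosen with earlier results of these data known, so the counts are a description only. Among 12 other ATF and CREB factors, 8 had a Fra-1 peak and 11 a Fra-2 peak, with medians of 1.5 and 2 peaks, while the median of all protein-coding genes was 0 and 1. Beside each list's counts stand the shares over all genes, 45.3% for Fra-1, 58.6% for Fra-2 and 42.7% for both. For peaks within 1 kb of a TSS the shares over all genes were 2.74% for Fra-1 and 5.09% for Fra-2. CREB3L1, a membrane-bound relative, had 6 Fra-1 and 9 Fra-2 peaks and a peak of each list 0.326 kb from a TSS. ATF5 and CREB5 had a Fra-2 peak at 0.142 and 0.053 kb from a TSS. Next in number after CREB3L1 were ATF6, with 3 peaks of each kind, and CREB1, with 4 for Fra-1 and 2 for Fra-2. Of the 7 Jun and Fos genes, 5 had a Fra-1 and 6 a Fra-2 peak, and FOS, the neighbour of JDP2, had neither. FOSL2 led with 6 for Fra-1 and 8 for Fra-2, the nearest 0.001 and 0.024 kb from a TSS. FOSL1 had 6 and 4, the nearest 0.983 kb from a TSS in either list, JUN had 5 and 6, and FOSB had 6 and 5. All 5 genes of the JNK and p38 kinases that act on ATF2 and ATF7 had peaks of both lists, as 42.7% of all genes did, with 1 or 2 peaks of each list per gene and most at MAPK9 (2 and 2). All 7 genes listed for the integrated stress response also had both. Of these, PPP1R15A, a phosphatase subunit that reverses the response, had 2 peaks for Fra-1 and 8 for Fra-2, the nearest of the latter 0.177 kb from a TSS. PPP1R15B, its constitutive relative, had 4 and 7.

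Among 12 target genes of ATF4, 5 had a Fra-1 peak (41.7%) and 7 a Fra-2 peak (58.3%), near the background of all genes, and 5 had neither. Within 1 kb of a TSS, Fra-2 peaks lay at TRIB3 (0.522 kb), a pseudokinase, at SLC3A2 (0.019 kb), a chain of amino acid transporters, and at ATF5, which is in both lists of genes. Of all protein-coding genes, 5.09% had a Fra-2 peak within that distance. TRIB3 had 1 Fra-1 and 4 Fra-2 peaks and DDIT4, an inhibitor of mTORC1 signalling, had 1 and 3. Of the IRF partners of BATF proteins, IRF4 had 1 Fra-1 and 2 Fra-2 peaks and IRF8 had a Fra-2 peak alone. No test was made on these lists, and the difference between them was not tested.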

How the data were processed

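ChIP-seq peak lists for Fra-1 and Fra-2 were used as deposited. They give another kind of value than counts: the authors' deposited start and end of each peak in bp, on a grid of 50 bp, with no score. Per the submitters' processing notes, Bowtie2 and hg19 were used, with no role stated; for peak caller, threshold, input and replicates, the handling is not given in the sources used here. No nuclear peak passed a chromosome end of GRCh37. The members and gene lists were chosen with earlier results of these data known.

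Peaks were joined to GENCODE 44 lifted to GRCh37 (all transcripts, chromosomes 1 to 22 and X) with pandas 2.3.3 and numpy 2.4.6 in Python 3.11.15. Intervals came from scipy 1.17.1, sequence from samtools 1.23.1 and plots from matplotlib 3.10.9. The counting was tested on simulated data. Windows for motifs spanned 100 bp to each side of a peak's centre. Repeat-like regions, defined after the data were seen, were chromosomes Y and M, 1 Mb around gaps of at least 1 Mb, and 1000 bp to each side of a centre where over 20% of 10-base words recur. The lists hold no score, so width of at least 200 bp served as the stricter threshold. All 8 genes and every peak of theirs are named. Genes of other lists are named where they have a peak within 1 kb of a TSS or are among the 2 with most peaks of both kinds in the list, ties included for all but the kinases; FOS is named as a neighbour of JDP2. The looser AP-1 match was added after the data were seen.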

Additional observations from a re-analysis of the deposited data

How the results depend on the processing

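With 1 list per antibody and no replicate lists, precision is limited by the number of peaks. No paired analysis was possible because each antibody has a single list. Of 48 alternative values for 8 results, 29 kept within 1.5 times the count or within the interval of the share, and 19 did not. The 29 include 1 value for each of the 8 results from leaving out repeat-like regions, a setting chosen after seeing the data. That setting could change none, since no member peak lay in such a region. With TSS of protein-coding transcripts only or the 5′ end alone, counts stayed within 1.5 times. Members with a Fra-1 peak fell from 5 to 4, though, as BATF3 lost its only one, so the members were no longer the same in both lists. ATF7 also lost its pair near AMHR2, which left 9 Fra-1 and 15 Fra-2 peaks.

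Distance and width both moved the counts. With 50 kb in place of 100 kb, 3 members had a Fra-1 peak and 5 a Fra-2 peak, and 4 Fra-1 and 8 Fra-2 peaks were counted. In the body or within 10 kb, 2 members had a Fra-1 peak and 2 a Fra-2 peak, with 3 and 4 peaks, of which 100% (Fra-1) were shared and 50% (Fra-2) held the AP-1 element. By nearest TSS, 2 members had Fra-1 and 3 had Fra-2 peaks, with 4 and 6 peaks. Among peaks at least 200 bp wide, 3 members had a Fra-1 peak, with 4 Fra-1 and 7 Fra-2 peaks, and 100% of the Fra-1 peaks held the element. With centres within 500 bp, 100% of Fra-1 peaks were shared. Within 50 bp of the centre, 40% of Fra-1 peaks held the element.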
